A study of Setaria viridis with 15 samples.

Results

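Cysteine-rich receptor-like kinases (CRKs) and wall-associated receptor kinases (WAKs) were followed across shoots of the C4 grass Setaria viridis that grew beside bacteria. Members were all genes for which the deposited annotation holds the name of either family, which gave 122 of the 28032 genes counted, 59 CRKs and 63 WAKs. No gene carried both names, and 15 of the 122 also had a name of another kind on a further line of the annotation. The WAKs comprised 43 genes with a WAK number and 20 called WAK-like. Numbers in the names, such as CRK10, record likeness to a protein of another species and do not give a function in Setaria.

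All plants were wild type (WT) and were 5 days old when 2 seedlings were moved to each plate. The plate carried plant medium and, in an inner dish, bacterial LB medium. The inner dish received 20 µL of a suspension of the isolate AI2.2-A, CTB P6B8 or MTS P5D6, and no inoculum in the mock control, and the sealed plates stood for 7 days under a 12 h photoperiod. RNA was sequenced from shoots, with 4 libraries for Control, 4 for AI2.2-A, 3 for CTB P6B8 and 4 for MTS P5D6. The labels name the libraries biological replicates without the number of seedlings in each, so p-values measure the spread between these samples.

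Both families sit in the plasma membrane, with a sensing part outside the cell and a protein kinase inside. CRKs carry cysteine-rich DUF26 repeats outside the cell, and in Arabidopsis many of their transcripts rise with pathogens, salicylic acid and reactive oxygen. WAKs carry EGF-like repeats, reach into the wall and bind pectin, and in Arabidopsis WAK1 senses the pectin fragments that form when a wall is broken down. WAK genes of maize and wheat have been cloned as disease resistance genes.

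Total counts per library ran from 13852517 to 25123025. Summed over a list of 21 green shoot markers, the CPM (read counts scaled to a common library size) ran from 18364 to 24752 for Control, 16070 to 20948 for AI2.2-A, 13763 to 18265 for CTB P6B8 and 13135 to 15890 for MTS P5D6. None of the 21 was at 0 in all libraries. In the same order of isolates 3, 3 and 2 of them rose and 5, 7 and 13 fell, at an edgeR adjusted p under 0.05, where 23.4%, 22.6% and 23.9% of all genes tested rose and 24.3%, 22.7% and 28.3% fell. With AI2.2-A 3 fell without Control replicate 1, 8 without AI2.2-A replicate 2 and 2 by library totals alone. A list of 5 root markers summed to 1.75 to 2.90 CPM for Control, 1.64 to 2.80 for AI2.2-A, 0.582 to 1.38 for CTB P6B8 and 0.247 to 1.47 for MTS P5D6. Of the 5, 3 nitrate transporters held 14 to 29 counts over all 15 libraries. Only 2 were tested, of which 0 rose and 1, 2 and 2 fell in the same order of isolates. The AI2.2-A decrease was lost by library totals alone or without Control replicate 2, 3 or 4 or AI2.2-A replicate 1, 2 or 4. With CTB P6B8, 1 fell without its replicate 1. These bulk values cannot tell apart fewer cells of a type and less RNA per cell, and the part of the green and root tissue markers in the results below was not tested.

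CRK and WAK transcripts took more reads, in sum, in the shoots beside each of the 3 isolates. Summed over all 122 genes, the libraries ran from 997 to 1287 CPM for Control, 1829.8 to 2151 for AI2.2-A, 1496 to 1875 for CTB P6B8 and 1675 to 2324 for MTS P5D6. Every isolate library lay above every control. Within groups the lowest control was replicate 1, the highest CTB P6B8 library was replicate 1, and the highest MTS P5D6 library was replicate 3.

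The CRKs alone summed to 655 to 818 CPM for Control, 1120.2 to 1272 for AI2.2-A, 959 to 1197 for CTB P6B8 and 1122 to 1537 for MTS P5D6. For the WAKs the sums were 342 to 469 CPM for Control, 709.6 to 879 for AI2.2-A, 529.6 to 678 for CTB P6B8 and 553 to 787 for MTS P5D6. In both families the controls lay below all 11 isolate libraries.

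Of the 122 genes, 109 had enough counts to be tested, 55 CRKs and 54 WAKs. Beside AI2.2-A, 71 members rose and 6 fell at an adjusted p under 0.05 in edgeR's quasi-likelihood test, where 23.4% and 24.3% of all 20310 genes tested did so. Beside CTB P6B8, 60 rose and 5 fell, against 22.6% and 22.7% of all genes. Beside MTS P5D6, 64 rose and 7 fell, against 23.9% and 28.3%. The 3 comparisons share the 4 control libraries, so their counts are not independent of one another.

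The changes were often large. At least 2-fold increases were called for 48 members beside AI2.2-A, 31 beside CTB P6B8 and 38 beside MTS P5D6, where 8.08%, 8.56% and 8.42% of all genes passed the same rule. These counts include members that could enter the test only through isolate libraries, where being high was a condition of the test, as described below. Decreases of at least 2-fold were called for 2 members with each isolate, against 2.47%, 2.30% and 5.40% of all genes. The median log2 fold change over all 122 members was 0.86, 0.68 and 0.71 in that order, beside 0.04, 0.04 and 0 over the 25342 genes with any count. Every library of the isolate group lay above every control for 72, 59 and 48 of the 122 members, the 13 untested ones included. Among the 99 members that reached the count filter in 3 controls, the counts were 62, 52 and 43, where 21.1%, 24.1% and 21.6% of all genes tested lay so. Every isolate library lay below every control for 5, 7 and 7 of the 122 members, and for 4, 6 and 6 of those 99, where 22.7%, 25.8% and 25.7% of all genes tested did.

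A total of 10 members passed the count filter without reaching it in 3 controls, so they could enter the test only through isolate libraries. Among the other 99 tested members, 63, 55 and 60 rose and 6, 5 and 7 fell in the same order of isolates. Of those 10, 8, 5 and 4 rose and none fell. The largest fitted increase of any member beside each isolate was that of 1 of them, LOC117833420 (CRK20), named after its values were seen, which held 5 counts over the controls and 72, 50 and 63 counts over the isolate groups. Fitted log2 fold changes were 3.36 ± 0.62, 3.18 ± 0.66 and 3.40 ± 0.63 (edgeR adjusted p = 0.000401, 0.00106 and 0.000294), and 4.12, 3.94 and 4.16 without Control replicate 2.

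The 13 untested members had between 10 and 105 counts over all libraries. In the authors' deposited tables, 74, 54 and 66 members were higher and 7, 6 and 7 lower at an adjusted p under 0.05, against 22.5%, 21.9% and 25.1% of all genes higher and 21.8%, 20.7% and 24.4% lower.

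**Figure D1:**
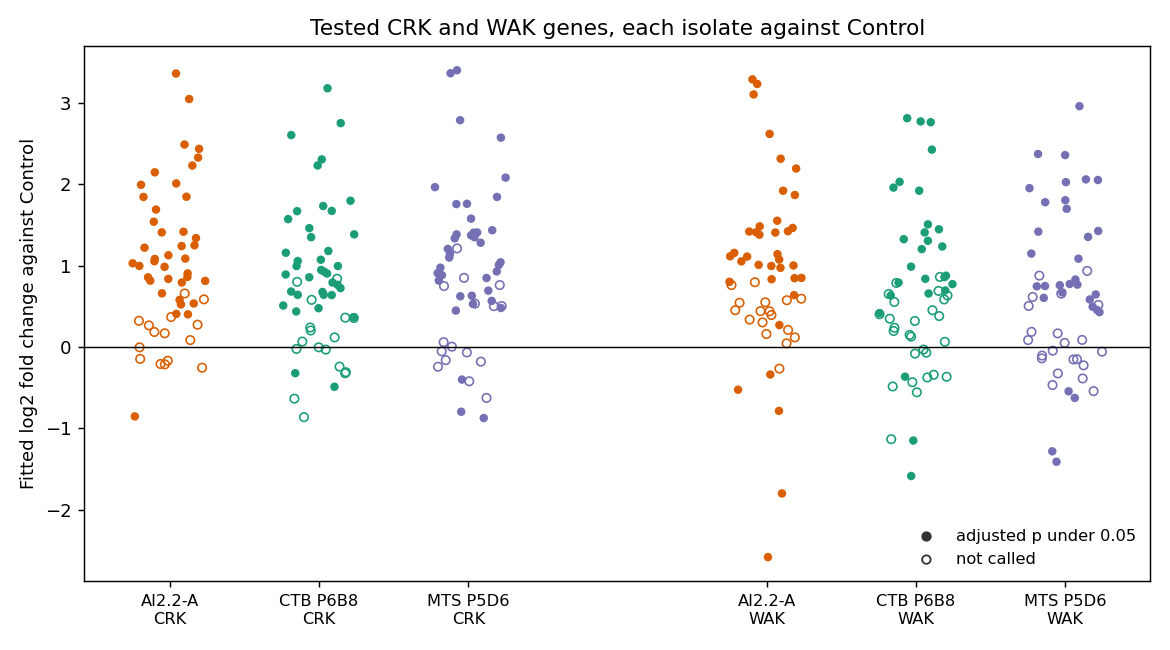
Fitted log2 fold change against Control (y axis) of the 55 tested CRKs and 54 tested WAKs beside each isolate (x axis), 1 point a gene, filled where the adjusted p was under 0.05. Most filled points lie above 0 in all 6 columns, and the WAKs include the deepest decreases.

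Within the CRKs, 39 of 59 rose beside AI2.2-A, 36 beside CTB P6B8 and 36 beside MTS P5D6, while 1, 2 and 3 fell, and the medians over all 59 were 0.88, 0.76 and 0.90 on the log2 scale. Within the WAKs, 32 of 63 rose beside AI2.2-A, 24 beside CTB P6B8 and 28 beside MTS P5D6, while 5, 3 and 4 fell. The medians over all 63 were 0.83, 0.59 and 0.63. As shares of those tested, 70.9%, 65.5% and 65.5% of the 55 CRKs and 59.3%, 44.4% and 51.9% of the 54 WAKs rose. Of all genes tested, 23.4%, 22.6% and 23.9% rose and 24.3%, 22.7% and 28.3% fell. Without replicate 3 of MTS P5D6 the count of risen WAKs beside that isolate was 18. With libraries scaled by their totals alone, 3 WAKs fell with AI2.2-A and 1 CRK fell with CTB P6B8. The few CRKs that fell numbered 2 with AI2.2-A without Control replicate 1 or AI2.2-A replicate 3 or 4, 1 with CTB P6B8 without Control replicate 4 or CTB P6B8 replicate 1 or 3, and 5 with MTS P5D6 without Control replicate 1.

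**Figure D2:**
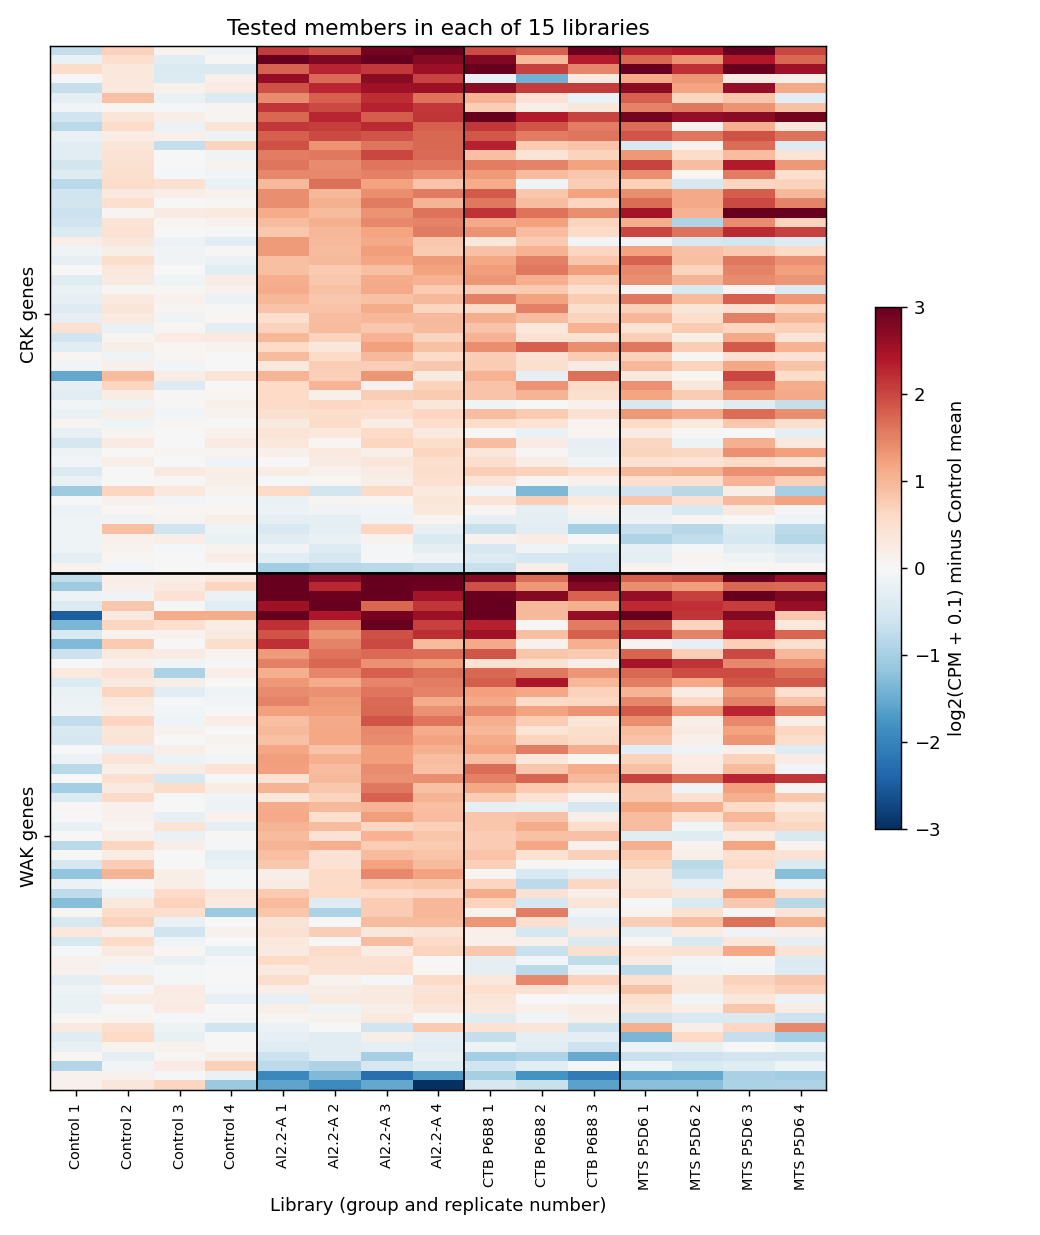
Level of each of the 109 tested members (rows, CRKs above the thick line, each family ordered by its AI2.2-A fold change) in each of the 15 libraries (columns), as log2(CPM + 0.1) minus the mean over the controls, with colours saturating at 3 and -3. The isolate libraries are mostly red, and a small block of WAKs at the bottom is blue in them.

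The CRK10 name was the most frequent, with 16 genes, all of them tested. Of these, 14 rose and none fell with AI2.2-A, 10 rose and none fell with CTB P6B8, and 9 rose and 1 fell with MTS P5D6. The MTS P5D6 count was 6 without its replicate 1. The 11 genes named CRK6 held 8, 9 and 9 that rose, and 1 that fell with MTS P5D6. As shares of the genes tested, 87.5%, 62.5% and 56.2% of the 16 CRK10 and 80%, 90% and 90% of the 10 CRK6 genes rose. Of all genes tested, 23.4%, 22.6% and 23.9% rose and 24.3%, 22.7% and 28.3% fell. The CRK10 increases with each isolate include LOC117844759, which could enter the test only through isolate libraries.

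The 7 genes named CRK15 held 4, 3 and 3 that rose and none that fell, or 1 that fell with MTS P5D6 without Control replicate 1. As shares of the 6 tested, 66.7%, 50% and 50% rose. Of all genes tested, 23.4%, 22.6% and 23.9% rose and 24.3%, 22.7% and 28.3% fell. Of the CRKs that the naming rule selected, a CRK15 gene had the largest increase beside AI2.2-A. LOC117861580 (CRK15) stood at 1.35, 2.28, 1.22 and 1.603 CPM in the controls, 18.2, 11.6, 13.5 and 11.1 beside AI2.2-A, 11.3, 3.17 and 8.50 beside CTB P6B8 and 5.37, 4.13, 8.67 and 5.43 beside MTS P5D6. All isolate libraries lay above the controls, and AI2.2-A libraries also lay above those of MTS P5D6. On the log2 scale, its changes against Control were 3.05 ± 0.35, 2.23 ± 0.37 and 1.84 ± 0.36 (SE) in the order AI2.2-A, CTB P6B8, MTS P5D6, with edgeR adjusted p = 6.26e-06, 0.000182 and 0.000487. Against MTS P5D6, AI2.2-A was higher by 1.20 ± 0.30 on the log2 scale (edgeR adjusted p = 0.00403).

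Another CRK15 gene, LOC117863594, which is also annotated as a G-type lectin kinase on a further line, stood at 1.75, 3.64, 3.21 and 3.46 CPM in the controls, 11.3, 14.6, 17.3 and 18.1 beside AI2.2-A, 19.6, 12.8 and 12.8 beside CTB P6B8 and 19.7, 6.69, 18.6 and 6.47 beside MTS P5D6. Here the groups of the isolates overlapped one another and all lay above the controls. MTS P5D6 fell into a higher pair and a lower pair of libraries. Its log2 fold changes were 2.33 ± 0.36, 2.31 ± 0.38 and 2.08 ± 0.36, with edgeR adjusted p = 8.75e-05, 0.000161 and 0.000178.

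The 4 genes named CRK19, 3 of them tested, held 3, 2 and 2 that rose and none that fell. As shares of the 3, 100%, 66.7% and 66.7% rose, where 23.4%, 22.6% and 23.9% of all genes tested did. LOC117845490 stood at 1.21, 2.45, 2.14 and 2.02 CPM in the controls, 6.47, 9.69, 6.92 and 8.74 beside AI2.2-A, 17.8, 10.3 and 8.002 beside CTB P6B8 and 14.5, 12.3, 13.0 and 14.7 beside MTS P5D6. All isolate libraries were above the controls, and those of MTS P5D6 were above those of AI2.2-A. Against Control, the log2 fold changes were 2.01 ± 0.25, 2.60 ± 0.26 and 2.79 ± 0.25 (edgeR adjusted p = 1.38e-05, 2.48e-06 and 3.70e-07). AI2.2-A against MTS P5D6 gave -0.78 ± 0.21 (edgeR adjusted p = 0.00727), or -0.65 with the numbers of the sample descriptions as a block (edgeR adjusted p = 0.0556).

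LOC117845357, also named CRK19, stood at 0.607, 0.816, 0.458 and 0.724 CPM in the controls, 4.51, 2.30, 4.74 and 2.93 beside AI2.2-A, 0.537, 0.173 and 0.812 beside CTB P6B8 and 1.53, 1.74, 0.774 and 0.740 beside MTS P5D6. Only the AI2.2-A libraries were clear of the controls, and the CTB P6B8 libraries ranged from below to just within the controls. Its log2 fold change with AI2.2-A was 2.44 ± 0.37 (edgeR adjusted p = 7.65e-05), while CTB P6B8 gave -0.31 ± 0.48 and MTS P5D6 gave 0.85 ± 0.41, with adjusted p = 0.624 and 0.0916. The differences between isolates were tested directly, and AI2.2-A was higher than CTB P6B8 by 2.75 ± 0.41 and than MTS P5D6 by 1.59 ± 0.34 (edgeR adjusted p = 0.00134 and 0.00132).

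Another group of CRKs stood highest beside MTS P5D6. LOC117843762 (CRK31, also annotated as a G-type lectin kinase) stood at 30.8, 40.1, 33.2 and 37.9 CPM in the controls, 49.2, 51.3, 49.0 and 54.9 beside AI2.2-A, 66.7, 61.3 and 48.4 beside CTB P6B8 and 87.6, 77.6, 113 and 93.4 beside MTS P5D6. The MTS P5D6 libraries were above every other library. Fitted log2 fold changes were 0.52 ± 0.12, 0.72 ± 0.13 and 1.38 ± 0.12, with edgeR adjusted p = 0.00201, 0.000295 and 2.65e-07. AI2.2-A and CTB P6B8 against MTS P5D6 gave -0.86 ± 0.12 and -0.66 ± 0.13 (edgeR adjusted p = 3.54e-05 and 0.00167).

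CRK2 of Arabidopsis phosphorylates the oxidase that makes extracellular reactive oxygen, and 3 Setaria genes bore its name. LOC117856340 (CRK2) stood at 9.31, 12.7, 15.3 and 14.3 CPM in the controls, 14.8, 13.9, 15.1 and 18.3 beside AI2.2-A, 21.4, 20.6 and 18.3 beside CTB P6B8 and 25.4, 26.8, 33.2 and 33.7 beside MTS P5D6. MTS P5D6 libraries were again the highest and did not overlap any other group. On the log2 scale, its changes against Control were 0.26 ± 0.14, 0.64 ± 0.15 and 1.21 ± 0.14 (edgeR adjusted p = 0.134, 0.00269 and 3.97e-06), and AI2.2-A against MTS P5D6 gave -0.94 ± 0.14 (edgeR adjusted p = 6.13e-05).

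The other named CRK2 gene, LOC117847068, was called lower beside AI2.2-A. It stood at 15.7, 13.8, 14.7 and 14.7 CPM in the controls, 7.11, 8.13, 8.33 and 9.02 beside AI2.2-A, 9.18, 16.5 and 9.82 beside CTB P6B8 and 15.9, 14.9, 15.3 and 15.1 beside MTS P5D6. The AI2.2-A libraries were below all others. Of the 3 CTB P6B8 libraries, replicates 1 and 3 also lay below every control, at 9.18 and 9.82 CPM. With AI2.2-A it fell by 0.85 ± 0.15 on the log2 scale (edgeR adjusted p = 0.000224), and CTB P6B8 and MTS P5D6 gave -0.32 ± 0.16 and 0.06 ± 0.14 (edgeR adjusted p = 0.103 and 0.756). Without CTB P6B8 replicate 2 it was called lower beside CTB P6B8 as well. AI2.2-A against CTB P6B8 gave -0.53 ± 0.16 (edgeR adjusted p = 0.0422), or -0.23 without CTB P6B8 replicate 2 (edgeR adjusted p = 0.256). That call was also lost without AI2.2-A replicate 1 (-0.47), 2 (-0.53) or 3 (-0.54). It was lost as well with limma quality weights (-0.37) and with only the 2 groups compared (-0.54). Either block, by replicate numbers or by the numbers of the sample descriptions, lost it too (-0.53 each). AI2.2-A against MTS P5D6 gave -0.91 ± 0.15 (edgeR adjusted p = 0.000143).

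The 5 genes named CRK25 held 2, 3 and 3 that rose and 0, 0 and 1 that fell. As shares of the 5, 40%, 60% and 60% rose, and 20% fell with MTS P5D6. Of all genes tested, 23.4%, 22.6% and 23.9% rose, and 28.3% fell with MTS P5D6. The 1 that fell, LOC117845492, was not called in several settings, as described below. LOC117858861 stood at 4.05, 6.74, 7.56 and 7.86 CPM in the controls, 13.8, 12.3, 16.2 and 20.0 beside AI2.2-A, 29.1, 19.8 and 16.7 beside CTB P6B8 and 36.3, 13.2, 50.9 and 56.4 beside MTS P5D6. All isolate libraries exceeded the controls, and replicate 2 of MTS P5D6 stood apart at 13.2 CPM from the 36.3 to 56.4 CPM of the others. Its log2 fold changes were 1.24 ± 0.36, 1.73 ± 0.37 and 2.57 ± 0.35 (edgeR adjusted p = 0.00924, 0.00141 and 2.08e-05), and AI2.2-A against MTS P5D6 gave -1.33 ± 0.32 with overlapping groups (edgeR adjusted p = 0.00344). LOC117866356, a CRK25 that took the second largest number of CRK counts and has 3 other names on further lines, was called with no isolate, at 81.2 ± 8.60 CPM in controls and 73.3 ± 8.86, 68.6 ± 3.51 and 78.2 ± 6.11 CPM with the isolates (SD, n = 4, 4, 3 and 4).

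Several CRK10 genes differed between isolates. LOC117845217 stood at 16.1, 17.9, 16.3 and 18.3 CPM in the controls, 75.8, 68.0, 85.4 and 75.4 beside AI2.2-A, 28.5, 19.5 and 21.7 beside CTB P6B8 and 48.2, 51.6, 43.7 and 31.4 beside MTS P5D6. The AI2.2-A libraries were above all others, MTS P5D6 came next, and CTB P6B8 lay between MTS P5D6 and the controls, with no overlap between any 2 of the 4 groups. Against Control, the log2 fold changes were 2.15 ± 0.14, 0.44 ± 0.15 and 1.35 ± 0.14 (edgeR adjusted p = 5.48e-08, 0.0282 and 1.57e-06). The CTB P6B8 value was not called without Control replicate 1 (0.41), Control replicate 3 (0.41) or CTB P6B8 replicate 1 (0.26), nor with the replicate numbers as a block (0.38, edgeR adjusted p = 0.0733). AI2.2-A was higher than CTB P6B8 by 1.71 ± 0.15 and than MTS P5D6 by 0.80 ± 0.13 (edgeR adjusted p = 2.79e-05 and 0.000194).

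LOC117861161, a CRK10 that is also annotated as an L-type lectin kinase, was the sole member called in opposite directions beside different isolates. It stood at 32.2, 31.9, 34.7 and 37.9 CPM in the controls, 50.7, 52.6, 51.5 and 43.4 beside AI2.2-A, 31.0, 33.9 and 37.3 beside CTB P6B8 and 24.6, 31.8, 26.4 and 20.7 beside MTS P5D6. The AI2.2-A libraries lay above every other library, the MTS P5D6 libraries lay below the controls, and the CTB P6B8 libraries overlapped the controls. It rose with AI2.2-A by 0.53 ± 0.11 and fell by 0.40 ± 0.11 on the log2 scale with MTS P5D6 (edgeR adjusted p = 0.000885 and 0.00659). The difference between those isolates was 0.94 ± 0.11 (edgeR adjusted p = 1.11e-05).

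LOC117861578 (CRK10) stood at 12.4, 14.5, 14.4 and 15.6 CPM in the controls, 31.0, 26.2, 31.2 and 24.3 beside AI2.2-A, 23.7, 24.3 and 20.5 beside CTB P6B8 and 14.6, 10.2, 14.9 and 10.5 beside MTS P5D6. Here AI2.2-A and CTB P6B8 libraries lay above the controls, and MTS P5D6 overlapped them. Fitted log2 fold changes were 0.98 ± 0.13, 0.68 ± 0.14 and -0.18 ± 0.13 (edgeR adjusted p = 2.08e-05, 0.000938 and 0.269), and AI2.2-A and CTB P6B8 each exceeded MTS P5D6, by 1.17 ± 0.13 and 0.86 ± 0.14 (edgeR adjusted p = 6.87e-06 and 0.000491). LOC117867092, the CRK10 with the most counts of any CRK, had means of 108 ± 11.4 CPM in controls and 123 ± 20.1, 124 ± 14.3 and 174 ± 30.0 CPM with the isolates (SD, n = 4, 4, 3 and 4), and was called with MTS P5D6 alone, at 0.69 ± 0.13 (edgeR adjusted p = 0.000314).

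CRK decreases were few and small. LOC117848267 (CRK6) stood at 2.23, 2.66, 2.82 and 2.12 CPM in the controls, 1.96, 2.11, 2.65 and 1.78 beside AI2.2-A, 2.69, 2.88 and 2.44 beside CTB P6B8 and 1.26, 1.41, 1.65 and 1.29 beside MTS P5D6, with MTS P5D6 below all other libraries. It fell by 0.80 ± 0.18 on the log2 scale with MTS P5D6 (edgeR adjusted p = 0.00165), and CTB P6B8 exceeded MTS P5D6 by 0.91 ± 0.19 (edgeR adjusted p = 0.00261). LOC117852689 (CRK37) fell with CTB P6B8 by 0.49 ± 0.13 on the log2 scale (edgeR adjusted p = 0.00535), from 24.4 ± 3.36 to 17.4 ± 0.662 CPM (SD, n = 4 and 3). The other CRK that fell with CTB P6B8, LOC117833824 (CRK45), was named after its values were seen. It gave -0.32 ± 0.11 (edgeR adjusted p = 0.0271). It was not called when replicate 2 (-0.29) or 4 (-0.29) of Control, or replicate 1 (-0.24) or 3 (-0.25) of CTB P6B8, was left out. Nor was it called by library totals alone (-0.22) or with a filter of 1 count in 1 library (-0.28).

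CRK genes often sit side by side in plant genomes. In the reference assembly Setaria_viridis_v4.0, used here for gene order alone, 118 of the 122 members were found. Runs with at most 2 other genes between neighbours held 48 of them, in 16 runs, and no run mixed CRKs with WAKs. The largest run held 14 CRKs, of which 13 were tested. Within it 10 rose and none fell with AI2.2-A, 11 rose and none fell with CTB P6B8, and 11 rose and 1 fell with MTS P5D6. In the same order, 23.4%, 22.6% and 23.9% of all genes tested rose and 24.3%, 22.7% and 28.3% fell. The increases of the run with each isolate include LOC117844759, which could enter the test only through isolate libraries. The 1 gene of the run that fell, LOC117845492 (CRK25), was named after its values were seen, and it gave -0.87 ± 0.35 (edgeR adjusted p = 0.0429). It was not called without Control replicate 2 (-0.44), without MTS P5D6 replicate 1 (-0.87), 2 (-0.81) or 4 (-0.84), with either other scaling, or in DESeq2. Nor was it called with limma quality weights, only the 2 groups compared, a filter of 1 count in 1 library, or either block. Without Control replicate 1 the run held 2 that fell with MTS P5D6, and without Control replicate 3 it held 1 that fell with CTB P6B8. Neighbouring near-identical copies can share reads, and the sources used here do not give how reads with several matches were counted.

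**Figure D3:**
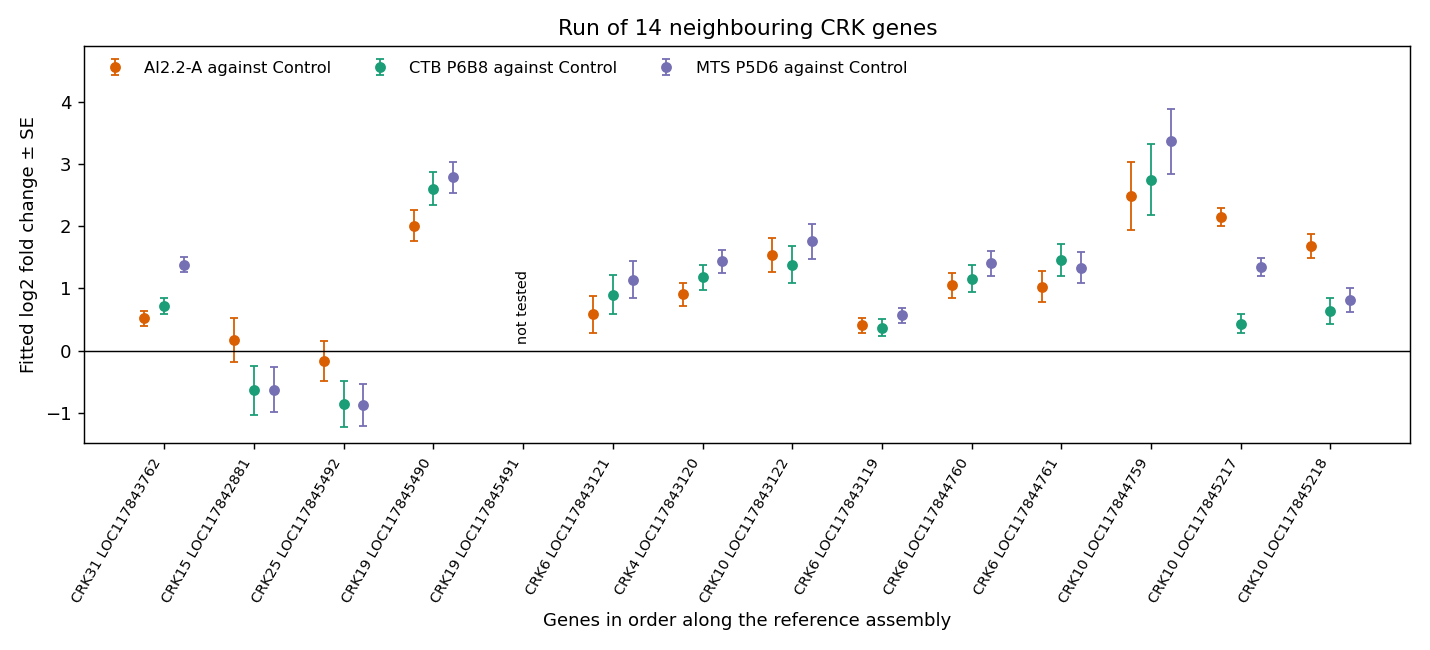
Fitted log2 fold change against Control with its SE (y axis) for the CRKs of the longest run, in their order along the reference assembly (x axis), 1 colour an isolate. The isolates lie close together for most genes, and AI2.2-A is highest at the last pair, LOC117845217 and LOC117845218.

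At one end of the run stood 3 CRK10 genes. LOC117844759 (CRK10) stood at 0.405, 0.326, 0.153 and 0.155 CPM in the controls, 1.08, 1.56, 1.40 and 1.92 beside AI2.2-A, 3.18, 1.32 and 0.850 beside CTB P6B8 and 2.74, 1.47, 4.75 and 1.91 beside MTS P5D6. It was 1 of the 10 members that could enter the test only through isolate libraries, so being higher there was a condition of its test. All isolate libraries were above the controls, which held 17 counts over 4 libraries. On the log2 scale, its changes against Control were 2.49 ± 0.55, 2.75 ± 0.57 and 3.36 ± 0.53 (edgeR adjusted p = 0.00161, 0.00101 and 6.81e-05), and the CTB P6B8 value was 2.01 without CTB P6B8 replicate 1. The next CRK along, LOC117845217, is described above. Its direct neighbour LOC117845218, also CRK10 and named after its values were seen, stood at 8.98, 15.2, 11.1 and 10.5 CPM in the controls, 32.8, 33.8, 45.4 and 36.5 beside AI2.2-A, 21.1, 14.8 and 17.8 beside CTB P6B8 and 27.9, 16.5, 21.5 and 15.0 beside MTS P5D6. AI2.2-A libraries were above all others, and CTB P6B8 and MTS P5D6 overlapped the controls. Despite the overlap, the gene was called higher with CTB P6B8, by 0.64 ± 0.21 on the log2 scale (edgeR adjusted p = 0.0196). That call was lost without Control replicate 1 (0.54) or 4 (0.60), without CTB P6B8 replicate 1 (0.51), or with the replicate numbers as a block (0.56). AI2.2-A exceeded CTB P6B8 by 1.05 ± 0.20 (edgeR adjusted p = 0.00631).

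A second run held 4 CRK10 genes, of which 4 rose beside AI2.2-A, 3 beside CTB P6B8 and 2 beside MTS P5D6. In the same order, 23.4%, 22.6% and 23.9% of all genes tested rose. The MTS P5D6 count of this run was 0 without Control replicate 1 or 3 or MTS P5D6 replicate 1 or 3. It was 1 without replicate 4 of either group. A run of 3 neighbouring WAKs, LOC117860776, LOC117860778 and LOC117860777, held none called against Control with any isolate. Of all genes tested, 47.7%, 45.4% and 52.2% were called in either direction.

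Among the WAKs, the WAK1-like and WAK2-like names held the most increases. The 12 WAK1-like genes held 10, 7 and 9 that rose and none that fell, in the order AI2.2-A, CTB P6B8, MTS P5D6. The 15 WAK2-like genes held 10, 8 and 8 that rose and 1, 1 and 0 that fell. Without CTB P6B8 replicate 1 the WAK2-like increases with CTB P6B8 numbered 4. As shares of the 12 and 13 tested, 83.3%, 58.3% and 75% of the WAK1-like and 76.9%, 61.5% and 61.5% of the WAK2-like genes rose. Of all genes tested, 23.4%, 22.6% and 23.9% rose and 24.3%, 22.7% and 28.3% fell. The WAK2-like increases with each isolate include LOC117860153 and LOC117833497, which could enter the test only through isolate libraries. By library totals alone no WAK2-like gene fell with AI2.2-A, and the CTB P6B8 decrease was lost without CTB P6B8 replicate 3. In Arabidopsis, WAK1 is a receptor for pectin fragments and WAK2 is needed for cell expansion.

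LOC117844748 (WAK1-like) stood at 0.877, 2.17, 2.44 and 3.10 CPM in the controls, 28.3, 9.73, 28.5 and 15.7 beside AI2.2-A, 7.74, 4.95 and 13.8 beside CTB P6B8 and 5.32, 4.78, 6.65 and 6.60 beside MTS P5D6. All isolate libraries lay above the controls, AI2.2-A ranged widely, and its libraries lay above those of MTS P5D6. Its log2 fold changes were 3.23 ± 0.40, 2.03 ± 0.42 and 1.42 ± 0.41 (edgeR adjusted p = 1.13e-05, 0.00107 and 0.00895). AI2.2-A exceeded MTS P5D6 by 1.82 ± 0.35 (edgeR adjusted p = 0.000640).

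A pair of WAK1-like genes rose beside AI2.2-A and MTS P5D6 and differed from CTB P6B8. LOC117841478 stood at 10.7, 11.5, 10.0 and 10.1 CPM in the controls, 30.3, 35.3, 27.3 and 25.4 beside AI2.2-A, 14.6, 14.6 and 12.2 beside CTB P6B8 and 59.1, 48.1, 29.1 and 27.6 beside MTS P5D6. AI2.2-A and MTS P5D6 overlapped each other and lay far above the remaining libraries, and CTB P6B8 lay just above the controls. Against Control, the log2 fold changes were 1.48 ± 0.20, 0.38 ± 0.22 and 1.95 ± 0.20 (edgeR adjusted p = 3.08e-05, 0.177 and 1.55e-06). AI2.2-A exceeded CTB P6B8 by 1.10 ± 0.22, and CTB P6B8 against MTS P5D6 gave -1.57 ± 0.22 (edgeR adjusted p = 0.00656 and 0.000169).

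LOC117852243, the other of the pair, stood at 35.8, 38.0, 35.1 and 31.4 CPM in the controls, 75.2, 68.4, 70.7 and 65.1 beside AI2.2-A, 28.4, 29.9 and 24.8 beside CTB P6B8 and 79.5, 75.0, 52.2 and 42.2 beside MTS P5D6. CTB P6B8 libraries lay below every control here, though the fitted difference was not called. Fitted log2 fold changes were 1.00 ± 0.15, -0.34 ± 0.17 and 0.83 ± 0.15 (edgeR adjusted p = 7.49e-05, 0.105 and 0.000271). AI2.2-A exceeded CTB P6B8 by 1.34 ± 0.17, and CTB P6B8 against MTS P5D6 gave -1.17 ± 0.17 (edgeR adjusted p = 0.000520 and 0.000209). LOC117864398, a WAK1-like gene with a WAK-like 8 name on a further line, rose with each isolate, from 1.08 ± 0.236 CPM to 4.15 ± 1.04, 4.22 ± 2.31 and 4.53 ± 1.24 CPM (SD, n = 4, 4, 3 and 4), or 1.92 ± 0.34, 1.96 ± 0.36 and 2.05 ± 0.34 on the log2 scale (edgeR adjusted p = 0.000280, 0.000389 and 0.000118).

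LOC117860153 and LOC117833497, both WAK2-like, were also among the 10 members that could enter the test only through isolate libraries, so their increases carry the same condition. LOC117860153 stood at 0.472, 0.489, 0.763 and 0.465 CPM in the controls, 5.31, 4.82, 5.00 and 3.50 beside AI2.2-A, 4.83, 4.20 and 2.09 beside CTB P6B8 and 3.89, 2.55, 6.09 and 4.32 beside MTS P5D6. The isolate groups overlapped one another and lay above the controls. On the log2 scale, its changes against Control were 3.10 ± 0.34, 2.76 ± 0.36 and 2.96 ± 0.34 (edgeR adjusted p = 4.01e-06, 2.31e-05 and 3.92e-06). LOC117833497 stood at 0.337, 0.924, 0.458 and 0.362 CPM in the controls, 3.31, 5.46, 1.82 and 2.50 beside AI2.2-A, 9.04, 1.04 and 1.12 beside CTB P6B8 and 2.63, 2.55, 2.37 and 3.45 beside MTS P5D6. Replicate 1 of CTB P6B8 stood far above the other 2 libraries of its group. The log2 fold changes were 2.62 ± 0.67, 2.81 ± 0.70 and 2.36 ± 0.69 (edgeR adjusted p = 0.00457, 0.00385 and 0.00892), and without that library the CTB P6B8 value was 1.02 and not called (edgeR adjusted p = 0.103).

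LOC117849122 (WAK2-like) stood at 3.04, 4.30, 2.14 and 3.05 CPM in the controls, 4.19, 6.06, 8.01 and 8.16 beside AI2.2-A, 8.82, 10.5 and 6.11 beside CTB P6B8 and 12.7, 10.1, 15.1 and 13.8 beside MTS P5D6. MTS P5D6 libraries were above those of AI2.2-A, and the lowest AI2.2-A library lay within the range of the controls. Its log2 fold changes were 1.05 ± 0.24, 1.41 ± 0.26 and 2.03 ± 0.24 (edgeR adjusted p = 0.00228, 0.000389 and 4.96e-06), and AI2.2-A against MTS P5D6 gave -0.97 ± 0.22 (edgeR adjusted p = 0.00214). LOC117834181, the WAK2-like gene with the most counts of any WAK, stood at 41.1, 72.4, 61.0 and 56.8 CPM in the controls, 110.5, 128, 155 and 124 beside AI2.2-A, 112, 75.7 and 81.1 beside CTB P6B8 and 109.6, 67.5, 130.4 and 88.2 beside MTS P5D6. AI2.2-A libraries lay clear of the controls, and the lowest MTS P5D6 library lay among them. Against Control, the log2 fold changes were 1.16 ± 0.20, 0.63 ± 0.21 and 0.77 ± 0.20 (edgeR adjusted p = 0.000189, 0.0206 and 0.00343). The CTB P6B8 value was not called without Control replicate 1 (0.50, edgeR adjusted p = 0.0614) or CTB P6B8 replicate 1 (0.44, edgeR adjusted p = 0.130).

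The 12 genes of the WAK-like 16 name, 11 of them tested, held 4, 4 and 3 that rose and 2, 1 and 2 that fell. As shares of the 11, 36.4%, 36.4% and 27.3% rose, where 23.4%, 22.6% and 23.9% of all genes tested did. The AI2.2-A decreases numbered 1 without Control replicate 3 or 4 or AI2.2-A replicate 1 or 2, or by library totals alone, and the CTB P6B8 decreases 2 without Control replicate 1. LOC117842659 stood at 3.24, 6.25, 6.34 and 6.98 CPM in the controls, 68.5, 37.0, 74.1 and 45.3 beside AI2.2-A, 37.2, 17.9 and 62.0 beside CTB P6B8 and 19.2, 20.7, 44.9 and 34.2 beside MTS P5D6. All isolate libraries lay above the controls, and the 3 isolate groups overlapped. Fitted log2 fold changes were 3.29 ± 0.39, 2.77 ± 0.40 and 2.37 ± 0.39 (edgeR adjusted p = 8.57e-06, 6.36e-05 and 0.000108). LOC117842620, of the same name, stood at 10.7, 10.7, 9.47 and 8.48 CPM in the controls, 2.48, 3.86, 1.98 and 2.93 beside AI2.2-A, 4.83, 2.76 and 2.203 beside CTB P6B8 and 3.23, 3.32, 4.901 and 4.69 beside MTS P5D6. All isolate libraries lay below all controls. It fell in each comparison, with log2 fold changes of -1.80 ± 0.24, -1.59 ± 0.26 and -1.28 ± 0.23 (edgeR adjusted p = 1.98e-05, 0.000145 and 0.000238).

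**Figure D4:**
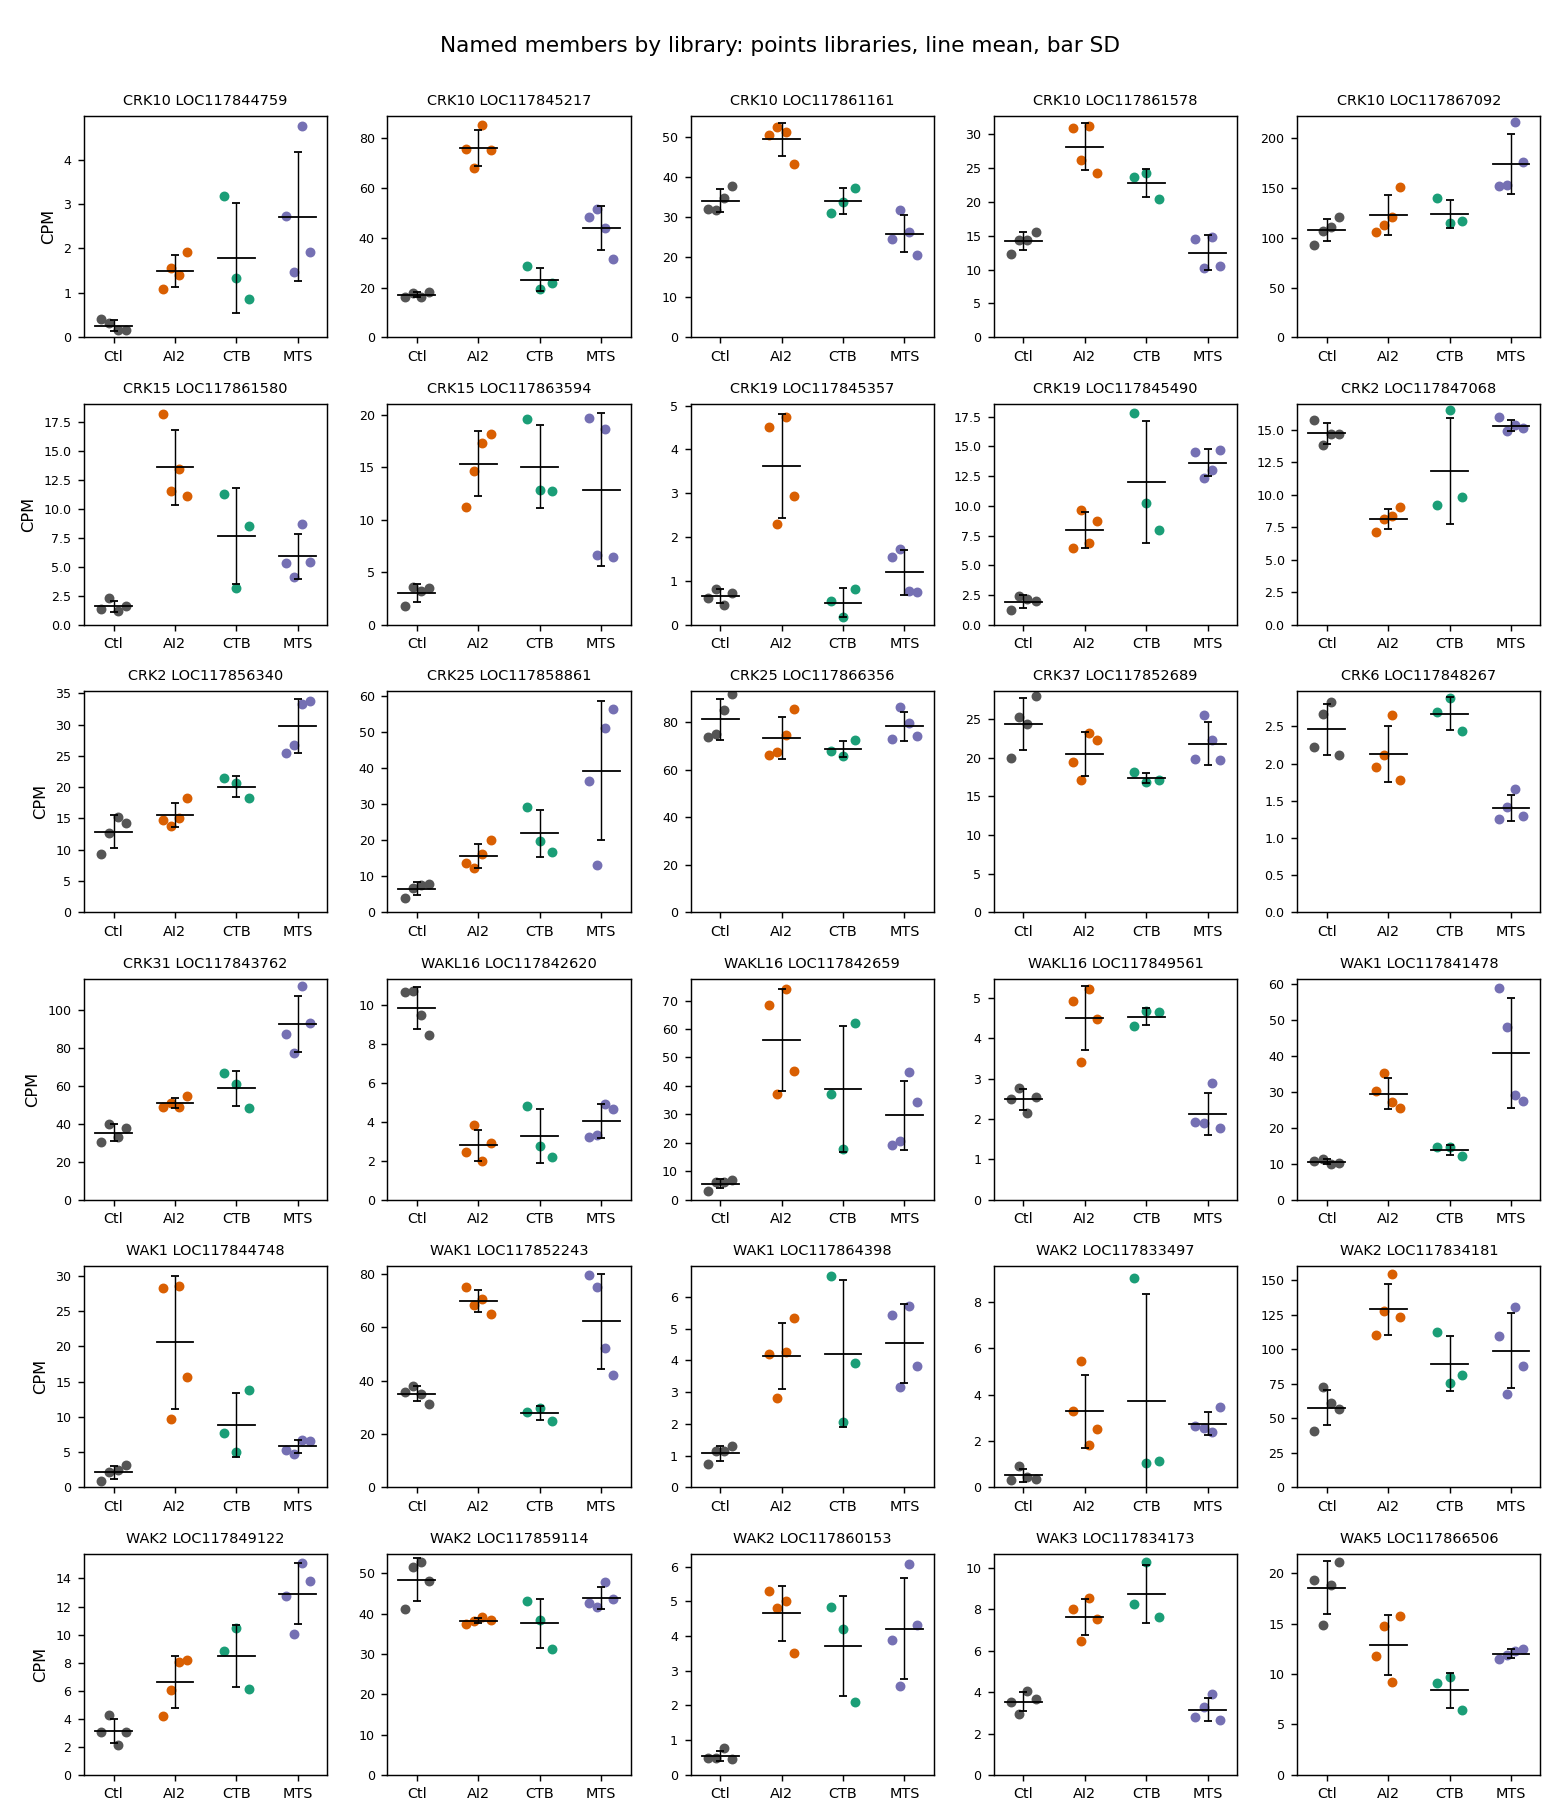
CPM (y axis, from 0) of the 30 members chosen by the naming rule in each library, grouped as Control (Ctl), AI2.2-A (AI2), CTB P6B8 (CTB) and MTS P5D6 (MTS), with the mean as a line and the SD as a bar (cut at 0). LOC117842659 lies above the controls in all isolate libraries, while LOC117842620 lies below them.

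LOC117849561 (WAK-like 16) and LOC117834173 (WAK3-like) rose beside AI2.2-A and CTB P6B8 and were not called beside MTS P5D6. LOC117834173 stood at 3.51, 2.94, 4.05 and 3.67 CPM in the controls, 8.02, 6.47, 8.53 and 7.54 beside AI2.2-A, 8.28, 10.3 and 7.65 beside CTB P6B8 and 2.79, 3.26, 3.92 and 2.65 beside MTS P5D6. AI2.2-A and CTB P6B8 libraries lay above the controls, and MTS P5D6 overlapped them. On the log2 scale, its changes against Control were 1.11 ± 0.15, 1.30 ± 0.16 and -0.15 ± 0.16 (edgeR adjusted p = 3.16e-05, 1.58e-05 and 0.447), and AI2.2-A and CTB P6B8 exceeded MTS P5D6 by 1.27 ± 0.15 and 1.46 ± 0.16 (edgeR adjusted p = 1.35e-05 and 3.70e-05). LOC117849561 stood at 2.50, 2.77, 2.14 and 2.53 CPM in the controls, 4.91, 3.40, 5.203 and 4.46 beside AI2.2-A, 4.30, 4.66 and 4.64 beside CTB P6B8 and 1.92, 1.90, 2.89 and 1.79 beside MTS P5D6. Again AI2.2-A and CTB P6B8 lay above the controls, while 3 MTS P5D6 libraries lay below them and replicate 3 above. Its log2 fold changes were 0.85 ± 0.17, 0.86 ± 0.19 and -0.23 ± 0.19 (edgeR adjusted p = 0.000939, 0.00146 and 0.322), and AI2.2-A and CTB P6B8 exceeded MTS P5D6 by 1.07 ± 0.18 and 1.08 ± 0.19 (edgeR adjusted p = 0.000164 and 0.000768).

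The 10 WAK5-like genes held 3, 0 and 3 that rose and 2, 1 and 2 that fell, out of 8 tested. As shares of the 8, 37.5%, 0% and 37.5% rose, where 23.4%, 22.6% and 23.9% of all genes tested did. With MTS P5D6 the count that rose was 0 without its replicate 3 and 1 without its replicate 1 or Control replicate 1 or 4, and the count that fell was 1 without replicate 1 or 2 of MTS P5D6 or replicate 2 or 3 of Control. With CTB P6B8, 2 rose without its replicate 3 or by library totals alone, and 1 without Control replicate 2 or 3, and 2 fell without Control replicate 4. LOC117866506 stood at 19.3, 14.9, 18.9 and 21.1 CPM in the controls, 11.8, 14.7, 9.16 and 15.7 beside AI2.2-A, 9.09, 9.67 and 6.42 beside CTB P6B8 and 11.5, 11.8, 12.3 and 12.5 beside MTS P5D6. CTB P6B8 and MTS P5D6 libraries lay below all controls, and AI2.2-A overlapped them. Against Control, the log2 fold changes were -0.53 ± 0.16, -1.15 ± 0.18 and -0.63 ± 0.16 (edgeR adjusted p = 0.0121, 0.000105 and 0.00375). LOC117847829 (WAK5-like), with the lowest fitted fold change of any tested member and too few counts for the naming rule, was named after its values were seen. It stood at 0.877, 1.03, 1.30 and 0.310 CPM in the controls, 0.200, 0.138, 0.208 and 0 beside AI2.2-A, 0.537, 0.461 and 0.193 beside CTB P6B8 and 0.274, 0.272, 0.361 and 0.370 beside MTS P5D6. It reached the count filter in 3 controls and in 1 isolate library, so it entered the test through the controls, where it was high. All AI2.2-A libraries lay below the controls, of which replicate 4 was lowest. It fell by 2.58 ± 0.54 on the log2 scale with AI2.2-A (edgeR adjusted p = 0.00111). With MTS P5D6 it gave -1.41 ± 0.49 (edgeR adjusted p = 0.0236). It was not called there without replicate 2 (-1.30) or 3 (-1.18) of Control or replicate 1 (-1.35) or 2 (-1.34) of MTS P5D6. That call was also lost with limma quality weights (-1.23) and with the numbers of the sample descriptions as a block (-1.33).

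LOC117859114 (WAK2-like) gave a small decrease. It stood at 41.0, 51.6, 52.9 and 48.1 CPM in the controls, 37.5, 38.1, 39.1 and 38.4 beside AI2.2-A, 43.2, 38.5 and 31.2 beside CTB P6B8 and 42.7, 41.6, 47.8 and 43.5 beside MTS P5D6. AI2.2-A libraries lay below every control in a narrow range, and CTB P6B8 overlapped the controls. Fitted log2 fold changes were -0.34 ± 0.09, -0.37 ± 0.10 and -0.14 ± 0.09 (edgeR adjusted p = 0.00770, 0.00856 and 0.224). The AI2.2-A value was not called when libraries were scaled by their totals alone (-0.21, edgeR adjusted p = 0.0820), and the CTB P6B8 value was not called without CTB P6B8 replicate 3 (-0.20, edgeR adjusted p = 0.120).

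Direct comparisons between isolates gave fewer differences. AI2.2-A against CTB P6B8 had 12 members higher and 1 lower with AI2.2-A, where 4.53% and 5.86% of all genes tested were called, or 10.4% in either direction. The total of 13 was 6 without AI2.2-A replicate 1 and 8 without CTB P6B8 replicate 2. AI2.2-A against MTS P5D6 had 22 higher and 13 lower, against 23.8% and 21.4% of all genes. The CRKs held 11 higher and 11 lower in that comparison, and the WAKs 11 higher and 2 lower. CTB P6B8 against MTS P5D6 had 8 higher and 10 lower, against 15.2% and 11.1% of all genes. At least 2-fold differences were called for 6 higher and 0 lower in the first pair, against 0.857% and 1.08% of all genes, for 10 higher and 1 lower in the second, against 7.25% and 3.14%, and for 2 higher and 3 lower in the third, against 4.55% and 0.847%. These comparisons share isolate libraries with one another.

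The median log2 difference over all 122 members was 0.16 for AI2.2-A against CTB P6B8, 0.18 for AI2.2-A against MTS P5D6 and -0.09 for CTB P6B8 against MTS P5D6, beside 0, 0.01 and 0.00 over all genes. For the last 2 pairs, the share of members called in either direction was below that of all genes, of which 45.2% and 26.3% were called.

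Other receptor kinases of the annotation, 495 genes of further classes, included 416 that were tested. In the order AI2.2-A, CTB P6B8, MTS P5D6, 178, 147 and 146 rose, where 23.4%, 22.6% and 23.9% of all genes tested did. In the same order 45, 61 and 117 fell, where 24.3%, 22.7% and 28.3% of all genes tested did. The medians of these receptor kinases were 0.38, 0.23 and 0.08 on the log2 scale. With libraries scaled by their totals alone, 24 fell with AI2.2-A. No test compared these genes with the members.

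Secreted and membrane proteins that share the DUF26 repeat but have no kinase numbered 10, and 6 were tested. They held 3, 2 and 2 that rose, where 23.4%, 22.6% and 23.9% of all genes tested did. They also held 1, 1 and 2 that fell, where 24.3%, 22.7% and 28.3% of all genes tested did. By library totals alone 0 of the 6 fell with AI2.2-A, and 0 fell with CTB P6B8 without its replicate 3. With MTS P5D6, 1 fell without Control replicate 4 or its own replicate 2 or 3. Both genes named cysteine-rich repeat secretory protein 55-like rose with every isolate. LOC117847439 went from 13.2 ± 2.68 CPM in controls to 27.1 ± 0.586, 37.9 ± 4.47 and 41.9 ± 11.7 CPM (SD, n = 4, 4, 3 and 4), or 1.04 ± 0.18, 1.52 ± 0.19 and 1.67 ± 0.18 on the log2 scale (edgeR adjusted p = 0.000214, 1.45e-05 and 1.84e-06). LOC117836668 gave 1.39 ± 0.26, 2.02 ± 0.27 and 2.27 ± 0.26 (edgeR adjusted p = 0.000417, 2.78e-05 and 3.03e-06). The plasmodesmata-located protein 8-like gene LOC117863888 gave -0.52 ± 0.16, -0.63 ± 0.18 and -0.70 ± 0.17 (edgeR adjusted p = 0.0148, 0.00886 and 0.00237), with the CTB P6B8 value not called without CTB P6B8 replicate 3 (-0.53) and the AI2.2-A value not called with libraries scaled by their totals alone (-0.39). These genes were picked for description after their values were seen.

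Respiratory burst oxidases, which make the extracellular reactive oxygen that many receptor kinases control, were mostly lower beside MTS P5D6. Of 9 genes, 2, 0 and 1 rose in the same order of isolates, where 23.4%, 22.6% and 23.9% of all genes tested did. The oxidases that fell numbered 3, 5 and 8, where 24.3%, 22.7% and 28.3% of all genes tested did. With libraries scaled by their totals alone, 4, 0 and 1 rose and 0, 2 and 7 fell, so the balance with AI2.2-A turned with the scaling. With AI2.2-A, 1 rose without Control replicate 2 or 3 or its own replicate 4, and 1 fell without Control replicate 2 or its own replicate 2 or 4. With CTB P6B8, 2 fell without its replicate 3 and 3 without its replicate 1 or Control replicate 1, 2 or 3. LOC117833104 (homolog B-like), named after its values were seen, was the 1 that rose with MTS P5D6, by 0.76 ± 0.10 (edgeR adjusted p = 1.47e-05).

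Pectin-acting enzymes, which modify or cut the polymer that WAKs bind, numbered 91, of which 64 were tested. Beside AI2.2-A 24 rose and 8 fell, beside CTB P6B8 21 rose and 9 fell, and beside MTS P5D6 11 rose and 23 fell. As shares of the 64 tested, 37.5%, 32.8% and 17.2% rose, where 23.4%, 22.6% and 23.9% of all genes did and 24.3%, 22.7% and 28.3% fell. The medians over all 91 were 0.39, 0.26 and -0.17 on the log2 scale. With libraries scaled by their totals alone, 30 rose and 5 fell with AI2.2-A.

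The counts of further signalling lists stand against 23.4%, 22.6% and 23.9% of all tested genes that rose and 24.3%, 22.7% and 28.3% that fell. Receptor-like cytoplasmic kinases, which pass signals on from receptors, numbered 35 and held 9, 10 and 13 that rose and 4, 1 and 4 that fell, with 4 that fell with CTB P6B8 when its replicate 2 was left out and 2 without its replicate 3 or Control replicate 1. With AI2.2-A 2 fell when libraries were scaled by their totals alone. The 49 genes of mitogen-activated protein kinase cascades held 13, 10 and 14 that rose and 14, 13 and 17 that fell, and the 27.7%, 21.3% and 29.8% of its 47 tested genes that rose were near the shares of all genes. Chitin and LysM receptors, 11 genes, held 3, 3 and 4 that rose and 1, 2 and 4 that fell. With libraries scaled by their totals alone, 5 rose with AI2.2-A. The decreases with CTB P6B8 numbered 1 with either other scaling, without any 1 control, or without CTB P6B8 replicate 2 or 3. The decreases numbered 2 with MTS P5D6 without Control replicate 4 or without its own replicate 1 or 3. Of these receptors, LOC117860082 (chitin elicitor receptor kinase 1-like), named after its values were seen, rose with MTS P5D6 by 0.76 ± 0.13 (edgeR adjusted p = 0.000121). It also rose with CTB P6B8, by 0.38 ± 0.14 (edgeR adjusted p = 0.0320). The CTB P6B8 call was lost without Control replicate 1 (0.32) or 2 (0.36) or CTB P6B8 replicate 1 (0.30) or 2 (0.39). CTB P6B8 against MTS P5D6 gave -0.38 ± 0.14 (edgeR adjusted p = 0.0482). That call was lost with either block, by library totals alone and without several single libraries. It was also lost with only the 2 groups compared and with a filter of 1 CPM in 3 libraries.

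SERK and BAK1 co-receptors, 7 genes in a list drawn up after the annotation was read, held 1, 1 and 4 that rose and none that fell. With AI2.2-A, 0 rose without Control replicate 1, 2 or 3 or its own replicate 3 or 4, 2 rose without its replicate 2, and 1 fell without Control replicate 1 or its own replicate 3. With MTS P5D6, 2 rose and 1 fell without Control replicate 1, and 1 fell without its replicate 2. With libraries scaled by their totals alone, 3 rose with AI2.2-A and 2 with CTB P6B8. Rapid alkalinization peptides and the receptors of their class, 13 genes, held 4, 4 and 2 that rose and 3, 2 and 2 that fell, with 2 that rose with CTB P6B8 when Control replicate 1 or 4, or CTB P6B8 replicate 2, was left out.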

How the data were processed

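Shoot RNA of 15 libraries was sequenced with a stranded total RNA kit, per the labels' protocols. The authors deposited a table of raw read counts per gene and, for each isolate against Control, a table with log2 fold changes, p-values and gene descriptions. Tools named in the submitters' processing notes, with no order or settings, were HISAT2 and featureCounts, FastQC and Trimmomatic, and DESeq2 1.6.3. The sources used here give no genome build, strand setting or treatment of reads with several matches.

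Counts were fitted with edgeR 4.0.16 in R 4.3.3. All 4 groups entered 1 quasi-likelihood fit with TMM scaling and the default expression filter (a minimum count of 10), and p-values were adjusted by Benjamini and Hochberg over the 20310 genes tested, with 0.05 as the threshold. Of the 28032 genes, 23214 had a description. CPM values are scaled by the TMM factors. The SE is the log2 fold change divided by the square root of F. Medians over lists came from a fit of the 25342 genes with 1 count in 1 library. The fit was checked on simulated counts.

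Members and lists were chosen with earlier results of these data known. Named members were, for each family and isolate, up to 4 that rose and 2 that fell with the largest changes, provided that their log2 CPM averaged 0 or more and that the groups did not overlap, up to 2 in each direction between isolates by the smallest p, the 2 with the highest mean CPM, and any called in opposite directions. This gave 30 genes. Replicates were counted as separate samples, since the labels name them biological replicates. None of the 21 pairs within groups agreed within sampling noise. That check cannot tell separate plants from separate libraries of the same RNA. No sequences are shown. Alternatives were RLE scaling, library totals, other filters, DESeq2 1.42.0, limma 3.58.1 with quality weights, only the 2 groups compared, the replicate numbers as a block, stricter thresholds and leaving out each library. The count over members that reached the filter in 3 controls was added after the data were seen.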

Additional observations from a re-analysis of the deposited data

Results flagged for a closer look

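Within the groups of 4, the CPM of the 30 members chosen by the naming rule were searched for a library whose gap to its neighbour, divided by the range of the group, exceeded Dixon's 95% critical value of 0.829, and 2 of 90 groups held one. Chance flags about 1 in 20 groups. LOC117849561 (WAK-like 16) stood at 2.89 CPM in replicate 3 of MTS P5D6, where the other libraries of that group lay between 1.79 and 1.92 CPM. LOC117860153 (WAK2-like) stood at 0.763 CPM in replicate 3 of Control, where the other controls lay between 0.465 and 0.489 CPM.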

How the results depend on the processing

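More members were higher than lower against Control under each alternative run, and no called fold change of a named member changed sign. Within 1 name the balance turned: WAK5-like genes with CTB P6B8, with 0 higher and 1 lower, had 2 higher by library totals alone or without CTB P6B8 replicate 3. With MTS P5D6 the WAK5-like genes had 3 higher and 2 lower, but 0 higher without MTS P5D6 replicate 3. Without Control replicate 1 or 4, 1 of them was higher with MTS P5D6. Requiring a 2-fold change left 2 members lower with AI2.2-A, 31 higher and 2 lower with CTB P6B8, and 38 higher and 2 lower with MTS P5D6, and left 6, 11 and 5 called between AI2.2-A and CTB P6B8, AI2.2-A and MTS P5D6, and CTB P6B8 and MTS P5D6. An adjusted p under 0.01 left 5 called between AI2.2-A and CTB P6B8 and 10 between CTB P6B8 and MTS P5D6. Fitting only the 2 groups compared gave 7 called between AI2.2-A and CTB P6B8. The cause was not tested, other than that stricter rules pass fewer genes.

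Leaving out 1 library at a time gave 66 to 73 higher and 5 to 7 lower with AI2.2-A, 46 to 63 higher and 3 to 7 lower with CTB P6B8 (3 without CTB P6B8 replicate 3), and 51 to 70 higher and 5 to 10 lower with MTS P5D6. Between isolates the totals ran from 6 to 14 for AI2.2-A against CTB P6B8, 30 to 41 for AI2.2-A against MTS P5D6 and 13 to 21 for CTB P6B8 against MTS P5D6.

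Same-numbered libraries of different groups did not deviate together: their 21 correlations ran from -0.153 to 0.142, and 2 of 15 libraries were closest to their own number. With the replicate numbers as a block, 8 members were lower with CTB P6B8, and with the numbers of the sample descriptions as a block 11 were called between CTB P6B8 and MTS P5D6. Scaling by library totals alone moved the median log2 fold change of all tested genes to 0.13 for AI2.2-A, 0.10 for CTB P6B8 and -0.02 for MTS P5D6, and 80, 62 and 65 members were then higher and 4, 4 and 6 lower. Low counts limit the 13 untested members.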
